A study of Homo sapiens with 2 samples.

Results

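The genes of calcium store release and refilling were examined in the RNA-Seq data of HEK293T cells. The set comprised 10 listed genes: the channel genes ORAI1, ORAI2 and ORAI3, the sensor genes STIM1 and STIM2, the IP3 receptor genes ITPR1, ITPR2 and ITPR3, the channel gene TRPC1 and the pump gene ATP2A2. They were taken by symbol, through a GENCODE annotation of GRCh37, and 9 of them had a matched row among the 57736 genes of the tables. ORAI1, which the annotation places on chromosome 12 from 122064414 to 122081124, had no row under its identifier there, ENSG00000276045, and was not analysed here. It may be listed under an older identifier that no annotation used here links to it, so the ORAI values and shares cover ORAI2 and ORAI3 only. The data comprised 1 group with 2 replicates of wild type HEK293T, an untreated human line that was established from embryonic kidney and expresses the large T antigen of SV40. No condition was compared with another, and levels were compared between genes and between the replicates. Nothing in the labels tells whether the replicates were separate cultures, so the tests between them cover the difference between these libraries, which may be technical.

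Calcium is stored in the endoplasmic reticulum (ER). Ligands of many receptors activate phospholipase C, which makes IP3, and IP3 opens the receptors of the ITPR family in the ER membrane, so that calcium flows into the cytosol. When the store runs low, the STIM proteins, which sense calcium inside the ER, cluster below the plasma membrane and open the ORAI channels, a process known as store-operated calcium entry (SOCE). The SERCA pump encoded by ATP2A2 returns calcium to the store. TRPC1, a cation channel of the plasma membrane, has also been linked to this entry.

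The libraries held 10593491 and 10104118 estimated counts, and a gene with no counts may have had up to 3 counts, which is 0.283 and 0.297 CPM. Both these limits and the intervals of count ratios cover only the error of counting reads. PCR copies of a molecule are counted as separate reads, so the error of counting molecules may be larger. The labels give the kidney as the tissue, but only 1 of 9 kidney markers, LRP2 at a mean TPM of 9.12, was detected, and 5 of the 9 had no counts in either library. Of 12 markers of blood, endothelium, fibroblasts and muscle with a row, COL1A1 at 8.88 and ACTA1 at 1.17 TPM were detected, and 6 had no counts. In bulk RNA, a lower share of expressing cells and less RNA per cell cannot be told apart.

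The members belong to families of related sequence, so their transcripts were compared first, to see whether a read of 50 nt, the length given in the labels, could be shared between them. The longest stretch identical between a member and a paralog ranged from 12 to 34 nt over all pairs, which is shorter than a read. The windows of 50 nt around the longest stretches of 4 pairs are given here, because the levels of these paralogs are set against each other. All are coding sequence from the GENCODE transcripts, written 5′ to 3′, and capitals mark the identical stretch. The ORAI2 window lies on the plus strand at chr7:102079615-102086995 of GRCh37 and the ORAI3 window on the plus strand at chr16:30960825-30964541, both across an intron. Their identical stretch was 34 nt long, and 7 of the 50 aligned positions differed.
ORAI2: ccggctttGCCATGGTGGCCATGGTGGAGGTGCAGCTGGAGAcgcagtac
ORAI3: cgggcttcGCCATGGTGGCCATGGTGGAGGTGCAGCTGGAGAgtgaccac
The ITPR1 window lies on the plus strand at chr3:4718440-4722240 and the ITPR2 window on the minus strand at chr12:26781092-26784844, again across an intron in each gene. Their identical stretch was 29 nt long and 9 positions differed.
ITPR1: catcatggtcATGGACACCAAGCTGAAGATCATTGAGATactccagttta
ITPR2: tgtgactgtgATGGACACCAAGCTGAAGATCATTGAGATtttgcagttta
The windows of ATP2A2 at chr12:110778553-110778602 and of ATP2A1 at chr16:28911991-28912040, both on the plus strand and within 1 exon, shared 29 nt and differed at 6 positions.
ATP2A2: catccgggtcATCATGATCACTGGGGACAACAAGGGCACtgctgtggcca
ATP2A1: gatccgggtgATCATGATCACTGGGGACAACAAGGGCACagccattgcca
STIM1 and STIM2 were the least alike of these pairs, with 14 identical nt and 13 differing positions. Their windows lie on the plus strand within 1 exon, at chr11:4091300-4091349 and chr4:27003883-27003932.
STIM1: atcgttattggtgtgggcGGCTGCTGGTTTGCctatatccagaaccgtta
STIM2: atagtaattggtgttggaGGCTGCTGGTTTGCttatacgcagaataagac

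Windows of 50 nt shared with genes outside these families were then counted. Of all different 50-nt windows in the annotated ORAI3 transcripts, 48.5% also occurred in a single other gene, the lncRNA ENSG00000261487, whose exons overlap those of ORAI3 on the same strand over 1397 bp. For ITPR3 the share was 9.48%, all with UQCC2, which lies on the opposite strand and overlaps its exons over 1025 bp. For ORAI2 it was 7.60%, or 854 windows, of which 539 occurred in ALKBH4, on the opposite strand with an overlap of 588 bp. The windows of ORAI2 were shared with 396 genes in all, those of ITPR1 with 265 and those of ATP2A2 with 62. These windows come from the GENCODE transcripts, 55 for ITPR1 and 32 for STIM1. The deposited values rest on other transcript sets, with 20 and 19 for these genes, so the windows only approximate the sharing of reads. The share was at most 2.45% in STIM1, ITPR1, ITPR2 and ATP2A2 and 0 in STIM2 and TRPC1. No source used here states whether strand was used in counting. The posterior SD deposited with the counts describes how reads are shared out between genes. In replicates 1 and 2 it was 5.05 and 3.26 counts for ITPR3, beside 5.28 and 3.78 for UQCC2. It was 1.79 and 1.47 for ORAI2, beside 1.60 and 1.39 for ALKBH4. The estimated counts of these genes were not whole numbers, so some of their reads were divided among genes. Whether those reads lie in the overlaps was not tested. For ITPR1 the posterior SD was 0.35 and 0.36 counts, and for ATP2A2 it was 0.00 in both replicates. The lncRNA had estimated counts of 5.26 and 3.87, UQCC2 of 346.27 and 293.77, and ALKBH4 of 212.71 and 171.32 in replicates 1 and 2.

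All 9 members with a row were detected, that is, each replicate gave a TPM of 1 or more (TPM is a gene's share of all transcripts, after division by length). Of all genes 27.7% were detected, and of the 19391 protein-coding genes 63.7%. The pump gene ATP2A2 stood far above the others, the sensors and ORAI2 lay between 14 and 20 TPM in each replicate, TRPC1 and the IP3 receptors were lower, and ORAI3 was the lowest. The median of log2(mean TPM + 1) was 3.49 over the members and 3.98 over all detected genes, a difference of -0.49. This difference depended on the library. It was -0.81 in replicate 1, in which ITPR2 was the middle member, and -0.15 in replicate 2, in which TRPC1 was.

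**Figure D1:**
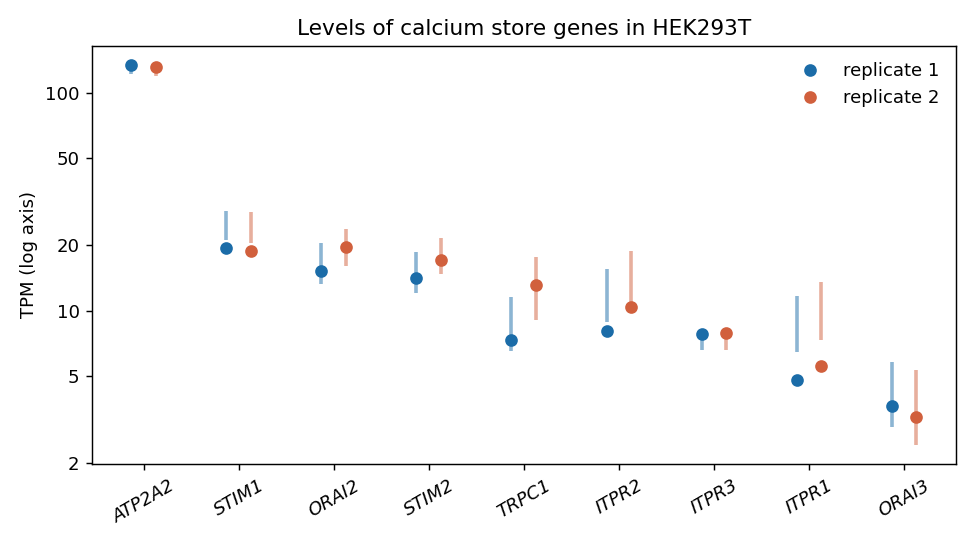
TPM of each member (log axis) in replicate 1 (blue) and replicate 2 (orange), with vertical lines for the interval of the TPM deposited with each value. ATP2A2 stands near 130 TPM and all other members at or below 19.49, and for STIM1, ITPR1 and ITPR2 the points lie below their intervals.

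The store is refilled by the SERCA pump. ATP2A2 (ENSG00000174437, chromosome 12, 110718561 to 110788898, plus strand) encodes SERCA2, the pump found in most tissues. Its TPM was 134.10 and 130.78 in replicates 1 and 2, or 132 ± 2.35 (SD, n = 2), from 4482 and 4293 estimated counts. Both libraries gave nearly the same value, at percentile 93.8 of the 15997 detected genes. The paralog ATP2A1, known from fast skeletal muscle, had 3.54 ± 0.771 TPM. ATP2A3, known from blood and epithelial cells, had 2.91 ± 0.247 TPM (SD, n = 2). ATP2A2 thus held 95.4% ± 0.621 (SD, n = 2) of the TPM of the 3 SERCA genes, with ratios of 38.2 ± 7.64 to ATP2A1 and 45.7 ± 3.09 to ATP2A3. These ratios depended on the measure: they were 21.5 ± 1.31 and 20.6 ± 0.0971 by posterior mean TPM and 189 ± 8.76 and 77.7 ± 0.551 by estimated counts (SD, n = 2), so the order of ATP2A1 and ATP2A3 was not fixed. Of the small membrane proteins that inhibit the pump, PLN was listed at 0.14 and 0.36 TPM and SLN at 0.20 and 0.00, both below the threshold of detection.

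Among the ER sensors, STIM1 (ENSG00000167323, chromosome 11, 3875757 to 4114440, plus strand) encodes the main sensor of store depletion. It had 19.30 and 18.68 TPM, or 19.0 ± 0.438 (SD, n = 2), from 499 and 461 estimated counts. STIM2 (ENSG00000109689, chromosome 4, 26859223 to 27027003, plus strand) encodes a sensor that responds to smaller losses of calcium. Its TPM was 14.05 and 16.99, or 15.5 ± 2.08 (SD, n = 2), from 238 and 292 estimated counts. STIM1 was above STIM2 in both replicates, 1.37-fold in replicate 1 and 1.10-fold in replicate 2. The intervals deposited with the TPM did not overlap in replicate 1 (21.0 to 28.7 for STIM1 and 12.0 to 18.5 for STIM2) and overlapped in replicate 2 (20.4 to 28.3 and 14.7 to 21.6), and in both replicates the TPM of STIM1 lay below its own interval. The share of STIM1 in the STIM TPM was 55.1% ± 3.89 (SD, n = 2).

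Of the calcium release-activated channels, ORAI2 (ENSG00000160991, chromosome 7, 102073553 to 102097272, plus strand) was the higher of the genes with a row. Its TPM was 15.16 and 19.49, or 17.3 ± 3.06 (SD, n = 2), from 354.38 and 362.25 estimated counts. ORAI3 (ENSG00000175938, chromosome 16, 30960389 to 30967782, plus strand) had 3.65 and 3.24 TPM, or 3.45 ± 0.290 (SD, n = 2), from 58.74 and 46.13 estimated counts. The values did not overlap, and ORAI2 was 4.15-fold above ORAI3 in replicate 1 and 6.02-fold in replicate 2. ORAI2 held 83.2% ± 3.64 (SD, n = 2) of their joint TPM. The ORAI3 counts were the least certain of the members: the posterior SD deposited with them, which describes how reads are shared out between genes, was 3.65 and 3.16 counts, or 6.21% and 6.85% of the count. These are close to the posterior SDs of 3.80 and 3.26 counts of the overlapping lncRNA ENSG00000261487, with which ORAI3 shares sequence. Whether reads were divided between these 2 genes was not tested.

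The 3 IP3 receptors differ in their affinity for IP3, and ITPR2 encodes the most sensitive one. ITPR2 (ENSG00000123104, chromosome 12, 26488285 to 26986127, minus strand) had 8.03 and 10.41 TPM, or 9.22 ± 1.68 (SD, n = 2), from 549 and 592 estimated counts. ITPR3 (ENSG00000096433, chromosome 6, 33588142 to 33664351, plus strand) had 7.78 and 7.86 TPM, or 7.82 ± 0.0566 (SD, n = 2), from 521.73 and 506.62 estimated counts. ITPR1 (ENSG00000150995, chromosome 3, 4535029 to 4889190, plus strand), known from its high level in Purkinje neurons, had 4.79 and 5.58 TPM, or 5.19 ± 0.559 (SD, n = 2), from 286 and 312 estimated counts. ITPR1 was thus the lowest of the family in TPM in both replicates, and ITPR2 and ITPR3 were nearly equal in replicate 1. The shares of the ITPR TPM were 41.3% ± 3.30 for ITPR2, 35.4% ± 3.40 for ITPR3 and 23.3% ± 0.102 for ITPR1 (SD, n = 2).

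The order of ITPR1 and ITPR3 depended on the estimate. RSEM, the program whose columns the tables hold, gives besides the TPM a posterior mean TPM, an average over its posterior distribution, in which each annotated transcript carries a prior count. This mean is above 0 even for a gene without counts, as for TESPA1, a gene known from T cells, at 2.18 and 2.25. The posterior mean TPM of ITPR1 was 9.01 and 10.33, against 7.20 and 7.25 for ITPR3. The ratio of ITPR3 to ITPR1 was 1.52 ± 0.152 in TPM and 0.750 ± 0.0688 in posterior mean TPM (SD, n = 2), so the lower gene by one measure was the higher by the other. In estimated counts, which are not scaled by length, the ratio was 1.72 ± 0.142. The posterior mean was 1.86 times the TPM for ITPR1, 1.45 times for ITPR2, 1.29 times for STIM1 and 0.924 times for ITPR3. In the tables ITPR1 has 20 transcripts, ITPR2 has 10, STIM1 has 19 and ITPR3 has 2, and the part of the prior counts in the change of order was not tested. For STIM1, ITPR1, ITPR2 and ATP2A2 the TPM lay outside the deposited interval in both replicates, above it for ATP2A2 and below it for the others. The other 5 members had their TPM inside.

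**Figure D2:**
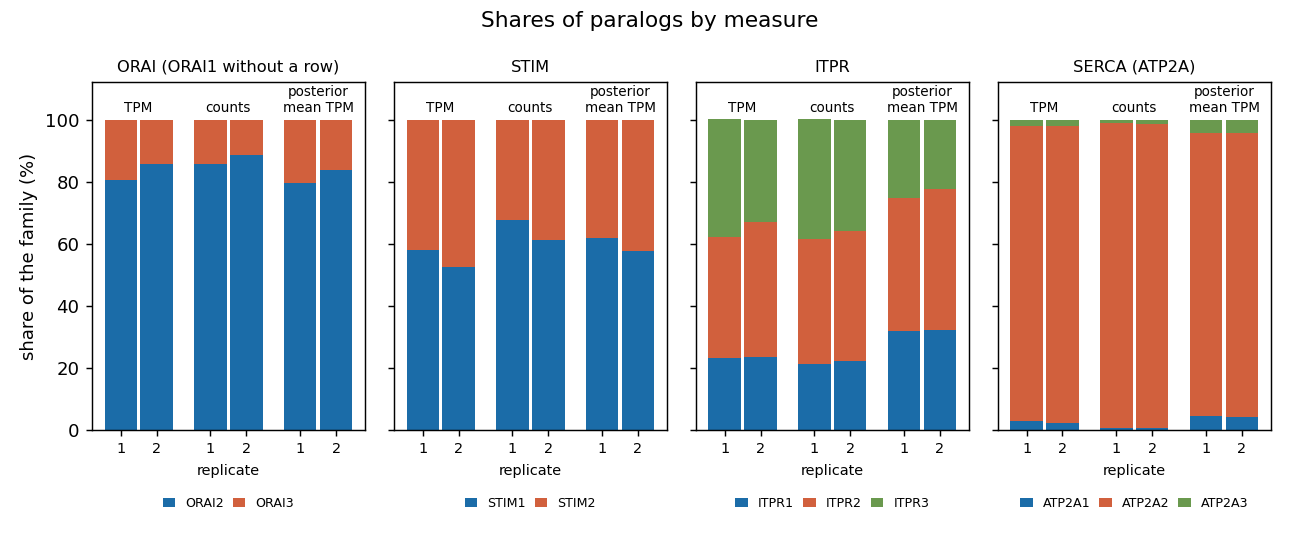
Share of each paralog (%) in the summed value of its family in replicates 1 and 2, by TPM, by estimated counts and by posterior mean TPM. ATP2A2 holds over 90% of the SERCA value by every measure, STIM1 holds over 50% of the STIM value, and the share of ITPR1 is larger by posterior mean TPM than by TPM or counts.

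TRPC1 (ENSG00000144935, chromosome 3, 142442876 to 142526730, plus strand) was the least reproducible member in TPM. It had 7.33 TPM in replicate 1 and 13.07 in replicate 2, or 10.2 ± 4.06 (SD, n = 2), a 1.78-fold difference. The estimated counts, 185 and 208, differed far less. The transcript length, an average over the annotated transcripts weighted by their estimated shares, was 3432 nt in replicate 1 and 2264 nt in replicate 2. Counts are divided by a related value, the effective length. Only 138 of 11883 genes with at least 100 summed counts had a larger change in effective length. With the mean of both effective lengths used for every gene, TRPC1 had 8.90 and 10.3 TPM, or 9.61 ± 0.995 (SD, n = 2). In the authors' table of pooled reads its length was 2848 nt and its TPM 9.60. The paralogs TRPC4, TRPC5, TRPC6 and TRPC7 were not detected and ranged from 0.00 to 0.37 TPM.

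By mean TPM the order was ATP2A2, STIM1, ORAI2, STIM2, TRPC1, ITPR2, ITPR3, ITPR1 and ORAI3. Neighbours were set apart where both replicates of the higher gene lay above both of the lower and the deposited intervals did not overlap. This held for 3 of 8 neighbouring pairs: ATP2A2 was 6.97-fold above STIM1, ITPR2 was 1.18-fold above ITPR3, and ITPR1 was 1.51-fold above ORAI3. The intervals belong to the posterior estimate and not to the TPM, and those of ATP2A2, STIM1, ITPR2 and ITPR1 do not contain the TPM. ITPR2 and ITPR3 were only 1.03-fold apart in TPM in replicate 1, and the 4.79 TPM of ITPR1 in that replicate lay inside the ORAI3 interval of 2.93 to 5.81, so these 2 pairs are not shown to differ in TPM by the intervals. The replicate values of STIM2 and TRPC1, and of ITPR3 and ITPR1, also did not overlap, but their intervals did. The values of ORAI2 overlapped those of STIM1 and of STIM2, and ORAI2 exceeded STIM1 in replicate 2. TRPC1 lay below ITPR2 and ITPR3 in replicate 1 and above both in replicate 2. This order is a description, since an exact two-sided permutation test of 2 values against 2 cannot give a p below 0.33.

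The reproducibility of the members was then tested by comparing the libraries with each other. In an exact binomial test (two-sided, on rounded estimated counts with TMM-scaled library sizes), 0 of 9 members differed between the replicates at an adjusted p under 0.05, while 3.87% of the 17920 genes tested did. At an unadjusted p under 0.05 there were 2 of 9 members, STIM2 and ITPR2, and 2383 of all genes tested, or 13.3%. The count of STIM2 was 1.29-fold higher in replicate 2 (95% exact interval 1.09 to 1.54), with an adjusted p of 0.0684 by this exact test. ITPR2 was 1.14-fold higher (1.01 to 1.28), with an adjusted p of 0.292 by the exact test. The other 7 had ratios from 0.823-fold in ORAI3 (0.547 to 1.23) to 1.19-fold in TRPC1 (0.968 to 1.45), with adjusted p from 0.483 to 0.973 by the exact test. The tightest interval was that of ATP2A2, the member with most counts, at 1.01-fold (0.969 to 1.05).

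The spread between the replicates was compared over 9 members and 11883 genes with at least 100 summed counts, sets not matched for count depth. The median absolute log2 difference in TPM was 0.220 over the members and 0.127 over the 11883 genes. In estimated counts these medians were 0.186 and 0.0899, and in effective length 0.0755 and 0.0653. The members with the largest TPM ratios, TRPC1, ITPR2 and ORAI2, were also those whose transcript length was shorter by most in replicate 2. It was 0.660, 0.864 and 0.829 of that in replicate 1.

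**Figure D3:**
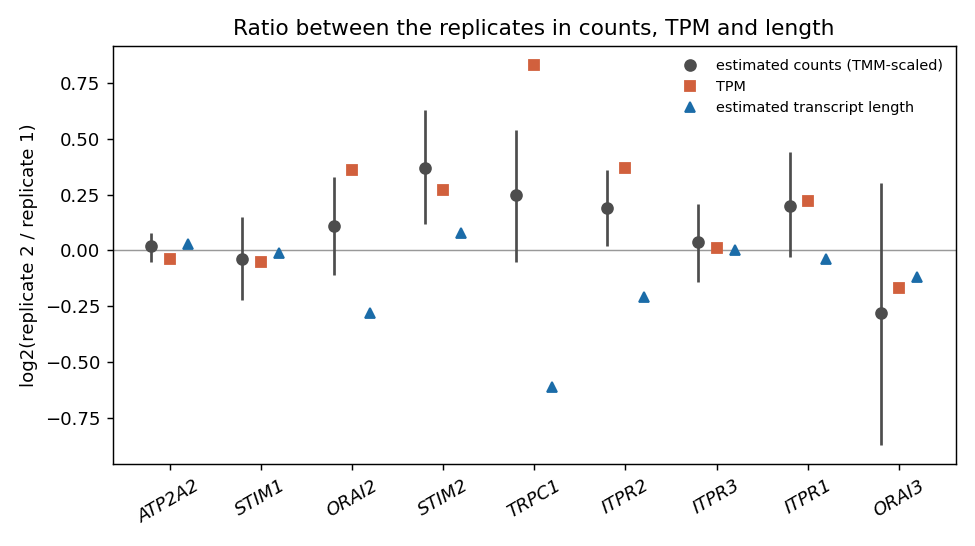
Log2 ratio of replicate 2 to replicate 1 for each member in estimated counts (circles, with the 95% interval of counting error), TPM (squares) and estimated effective transcript length (triangles). TRPC1 has the largest TPM ratio and the largest fall in length, and the count intervals of all members but STIM2 and ITPR2 include 0.

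The members were set beside 88 other genes of calcium handling in 10 role groups, of which 66 were detected. Of all 19391 protein-coding genes, 63.7% were detected by the same threshold. Among the other release channels, 5 of 8 were detected. TMCO1, which encodes a channel that lets calcium leak from an overfilled ER, was the highest at 119 ± 6.89 TPM (SD, n = 2), above all members but ATP2A2. MCOLN1, a channel of lysosomes, had 18.9 ± 2.14 TPM, and PKD2, the polycystin-2 channel, had 17.2 ± 5.13 TPM. The estimated counts of PKD2 were close, at 354 and 347, while its length was 2327 nt in replicate 1 and 3608 nt in replicate 2. With the mean of both effective lengths it had 16.4 ± 0.111 TPM (SD, n = 2). The ryanodine receptors, which release store calcium in muscle and neurons, were not detected by the TPM threshold. Their estimated counts in replicates 1 and 2 were 6 and 4 for RYR1, 32 and 26 for RYR2, and 21 and 17 for RYR3. RYR1 had 0.60 and 0.18 TPM, RYR2 had 0.33 and 0.30 TPM, and RYR3 had 1.13 and 0.64 TPM, so every IP3 receptor lay above every ryanodine receptor in both replicates.

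Upstream of the IP3 receptors, all 10 phospholipase C genes listed were detected. PLCG1, the isoform activated by receptor tyrosine kinases, was the highest at 54.8 ± 2.60 TPM, followed by PLCD3 at 28.1 ± 3.18 and PLCB3, an isoform activated by G proteins, at 16.5 ± 0.346 TPM (SD, n = 2). Of 6 regulators of the IP3 receptors 4 were detected. TMBIM6, an ER membrane protein that lowers store calcium, had 371 ± 8.37 TPM, AHCYL1, which competes with IP3 for the receptor, had 65.8 ± 0.191 TPM, and its paralog AHCYL2 had 10.7 ± 2.35 TPM (SD, n = 2). TESPA1 had no counts in either library.

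Of 9 regulators of STIM and ORAI 7 were detected. SARAF, an ER protein that turns store-operated entry off, had 87.2 ± 2.09 TPM, above STIM1, STIM2, ORAI2 and ORAI3 in both replicates. The tethers of the ER to the plasma membrane ESYT1 and ESYT2 had 55.8 ± 0.0849 and 35.6 ± 1.28 TPM (SD, n = 2).

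The group listed as ER luminal calcium proteins, not all of which reside in the lumen, had the highest median of the role groups, 143 TPM. Of its 13 genes 11 were detected. The chaperones CANX, CALR and HSP90B1 had 984 ± 32.2, 611 ± 36.8 and 468 ± 31.2 TPM (SD, n = 2). CASQ1 and CASQ2, the calcium buffers of muscle, were not detected. Of the 88 listed genes, 4 differed between the libraries by the exact binomial test, beside 3.87% of all 17920 genes tested. This group held 3 of the 4. CANX was 1.05-fold higher in replicate 2 (adjusted p = 0.00991 by the exact test), CALR was 0.951-fold (adjusted p = 0.0487, exact test) and HSPA5, the chaperone BiP, was 0.898-fold (adjusted p = 4.40e-06, exact test). These abundant genes passed the test with count ratios nearer to 1 than those of STIM2 and ITPR2, which did not.

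Of the 9 genes of calcium extrusion at the plasma membrane and of uptake into the Golgi 4 were detected. The Golgi pump gene ATP2C1 had 41.7 ± 6.70 TPM, and the plasma membrane pump genes ATP2B1 and ATP2B4 had 41.6 ± 2.87 and 27.1 ± 1.87 TPM (SD, n = 2). All of these were lower than ATP2A2 and higher than STIM1 in both replicates. The estimated counts of ATP2C1 were 789.32 and 756.40, while its length was 2914 nt in replicate 1 and 2318 nt in replicate 2. With the mean of both effective lengths ATP2C1 had 41.2 ± 0.381 TPM (SD, n = 2).

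**Figure D4:**
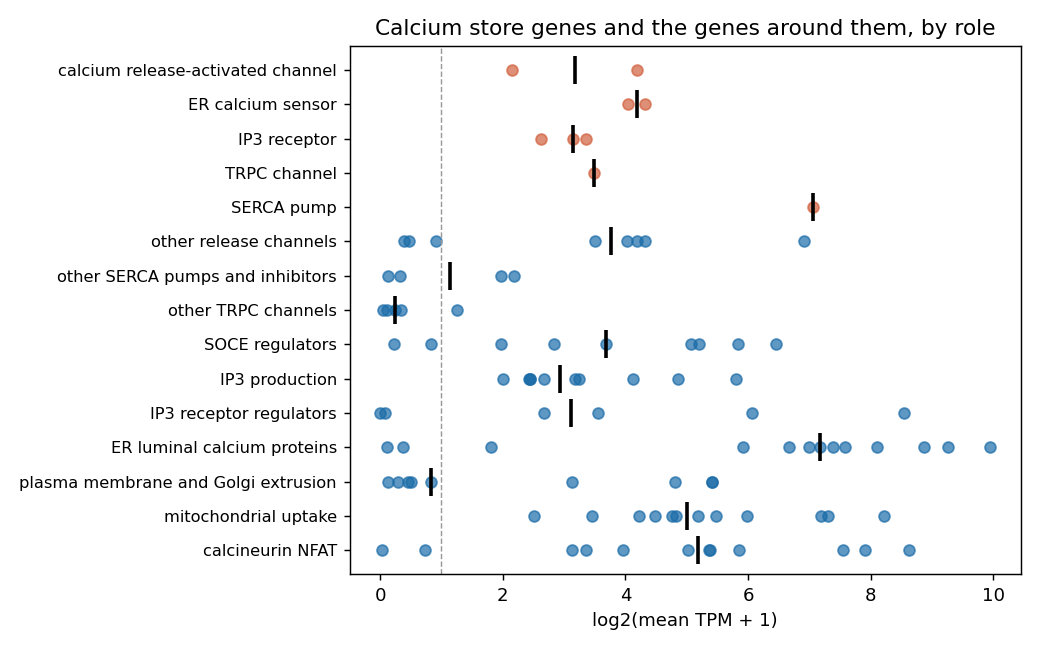
Log2(mean TPM + 1) of the members (orange) and the other calcium genes (blue) by role, each point a gene with its mean over 2 replicates, with black bars for group medians and a dashed line at a mean TPM of 1. All members lie right of the line, and the group listed as ER luminal calcium proteins has the highest median of the blue groups.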

How the data were processed

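Poly(A)+ RNA of wild type HEK293T was sequenced in 2 libraries. The authors' processing notes name Trimmomatic 0.36, STAR 2.6.1c, RSEM 1.3.1 and the hg19 (GRCh37.p13) genome. The study's methods name featureCounts, but the deposited columns are those of RSEM and were read as such. Each estimated count, as deposited, is the number of reads of a gene after RSEM has divided ambiguous reads among genes. The authors' TPM and FPKM correct for transcript length. Posterior SDs, posterior mean TPM and interval bounds are scores deposited by the authors, and no source used here gives the level of the interval. The table of pooled reads was used only where named.

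Gene symbols, positions and transcripts were taken from GENCODE (release 44, GRCh37), which matched 96.1% of the identifiers. Depth was 10593491 and 10104118 estimated counts. The replicates were compared with an exact binomial test, two-sided (scipy 1.17.1), with TMM sizes from edgeR 4.0.16 in R 4.3.3, adjusted by Benjamini-Hochberg over genes with at least 10 summed counts, and tested on simulated data. Alternatives were TPM minimums of 0.1 and 5, FPKM of 1, 10 counts, a pseudocount of 0.1, RLE and total counts, other filters, posterior means and leaving out each replicate. A TPM computed with 1 common effective length per gene, and an order by replicate values alone, were added after seeing the data.

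The members and lists were chosen with earlier results of these data known. Named were all members, in each role group the 3 genes with the highest mean TPM, paralogs of members, listed genes with a TPM of 0 and genes overlapping a member's exons. PLN, SLN, CASQ1, CASQ2, HSPA5 and the genes NFATC2 and PPP3R2 were named after their values were seen. The values of 2 genes that this rule names are not reported here.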

Additional observations from a re-analysis of the deposited data

How the results depend on the processing

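The number of members detected was 9 under every threshold tried but a TPM of at least 5, which left 7. No member tested differed between the libraries under any setting of the binomial test. The setting with genes of whole counts only tested 6 members and left out ORAI2, ORAI3 and ITPR3. The smallest adjusted p of a member ranged from 0.0636 to 0.142 in that exact test, the latter with genes of whole counts only. The genes called numbered 693 in the main test, 450 with posterior mean counts and 70 with genes of whole counts only. Of the calcium genes listed, 66 were detected, and 55 to 77 under other thresholds. In estimated counts, not scaled by length, the family shares were 87.2% for ORAI2, 12.8% for ORAI3, 64.5% for STIM1, 21.6% for ITPR1 and 98.2% for ATP2A2. By posterior mean TPM they were 59.7% for STIM1, 31.9% for ITPR1, 24.0% for ITPR3 and 91.3% for ATP2A2. Against detected protein-coding genes the members' median differed by -0.99, in place of -0.49 against all detected genes. Judged by replicate values only, 5 in place of 3 neighbouring pairs were set apart. The shares by counts, the -0.99 and the 5 pairs follow from the changed unit, background and rule. The cause of the other shifts was not tested. No paired analysis was possible because the data hold a single group. Depth limits ORAI3 most, with 58.74 and 46.13 counts, and with 2 replicates an SD is itself uncertain.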

Other observations

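The listed genes downstream of calcium entry were also measured. All 12 genes of mitochondrial calcium uptake were detected, with a median of 31.3 TPM. Of all protein-coding genes, 63.7% were detected. The outer membrane channel genes VDAC1, VDAC2 and VDAC3 were the highest, at 296 ± 6.78, 157 ± 5.41 and 145 ± 0.297 TPM (SD, n = 2).

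Of 12 genes of calmodulin, calcineurin and the NFAT transcription factors 10 were detected. The calmodulin genes CALM3 and CALM2 had 395 ± 24.0 and 187 ± 6.24 TPM (SD, n = 2). CALM3 was the only one of the 12 that differed between the libraries, 0.913-fold in replicate 2 (adjusted p = 8.29e-05, exact binomial test). Of all 17920 genes tested, 3.87% differed by this test. NFATC2, a factor of lymphocytes, and PPP3R2, a calcineurin subunit of testis, were not detected.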
